A study of Mus musculus with 4 samples.

Results

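Cytosolic ribosomal protein genes were examined in mouse muscle stem cells with and without a conditional knockout of Hairless. The genes were picked by symbol alone: every row of the table whose symbol begins with Rpl, Rplp, Rps or is Rpsa, apart from kinases of the Rps6k family and symbols marked as pseudogenes. This rule gave 88 of 11603 rows, with 83 symbols. Of these rows, 77 cover the main locus of a protein of the cytosolic ribosome, 46 in the large and 31 in the small subunit. Another 6 are ribosomal-protein-like genes, and 5 are second rows of a symbol at another place in the genome.

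The cells were sorted from hindlimb muscle of male C57BL/6 mice aged 4 to 5 months, in a sort that kept VCAM1+ cells and left out those with CD31, CD45 or Sca1 on their surface. The control group and the knockout group, whose genotype is labelled conditional Hairless knockout, had 2 libraries each, made from 10 ng of total RNA. Strain, sex, age and sort were the same in both groups. The labels name neither the Cre driver, nor the deleted exons, nor any inducing agent, and the genotype of the control animals is given only as control. Whether the libraries of a group came from separate animals is not said, and p-values therefore reflect the spread among these libraries alone, which may be technical.

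Each ribosome is built from a small subunit, which reads the messenger RNA, and a large subunit, which joins amino acids, and each holds its own set of ribosomal proteins. Their messenger RNAs begin with a C followed by a run of pyrimidines, the 5′ terminal oligopyrimidine (TOP) motif, through which mTORC1 signalling and LARP1 set how much of them is translated. Muscle stem cells are quiescent in resting muscle, with little RNA and little protein synthesis, and both increase when the cells activate.

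Hairless (Hr), a nuclear corepressor, stood at 9.28 and 8.94 RPKM (reads per kilobase of exon, scaled to the library's size) in the control libraries and at 7.15 and 7.90 RPKM in the knockout libraries. Both knockout values were lower, with a log2 fold change of -0.26 (SE 0.16, limma adjusted p = 0.431). Reads from Hr exons that the deletion leaves in place would count here too, so this level is a weak check of the genotype. The reads listed per library were 26990809 and 22577330 in the controls and 34101213 and 21757211 in the knockouts. All 9 muscle stem cell markers were above 1 RPKM in at least 1 library. They summed to 3053 and 2452 RPKM in the controls and 4006 and 4472 RPKM in the knockouts, most of it from Sdc4 (2121 and 1582 against 3031 and 3260 RPKM). Itga7 went the other way, with a log2 fold change of -0.89 (SE 0.19). Cdh15 (-0.29), Calcr (-0.10), Cxcr4 (-0.06) and Vcam1 (-0.005) were lower in the mean too, with overlapping groups. Pax7 stood at 0.07, also with overlapping groups. Besides Sdc4, only Myf5 (0.44) and Chrdl2 (0.73) were higher in both knockout libraries, so the sum does not describe the list. The summed level of the 6 measured myofibre markers was 163 and 686 RPKM in the controls and 50.3 and 48.7 RPKM in the knockouts. Most of the sum in control 1 came from Acta1 (144 and 455 against 36.5 and 31.9 RPKM). Mylpf, Pvalb, Tnnt3 and Ckm were high in control 2 alone, at 39.4 to 70.1 RPKM. In control 1 and the knockouts they were at 2.41 to 5.86 RPKM. Control 2, the library richest in myofibre transcripts, was also the lowest in ribosomal protein transcripts, and the part of one in the other was not tested. The 3 measured fibro-adipogenic markers summed to 256 and 215 RPKM against 451 and 288 RPKM. Dpt was high in knockout 1 alone (131 and 117 against 323 and 124 RPKM). Dcn had overlapping groups (76.6 and 48.8 against 51.1 and 83.7 RPKM), and Ly6a was higher in both knockout libraries (47.9 and 49.5 against 77.4 and 80.7 RPKM). The 5 measured blood markers summed to between 5.40 and 7.36 RPKM, and 4 of them stayed below 1 RPKM in every library. The 6 endothelial markers summed to 28.8 and 34.6 RPKM against 23.5 and 33.8 RPKM, and 0 of them stayed below 1 RPKM in every library. The measured pericyte and smooth muscle, Schwann and tenocyte markers each summed to between 4.32 and 31.8 RPKM in a library.

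Ribosomal protein transcripts were higher in the knockout libraries almost throughout, by a similar amount from gene to gene, and no single gene passed the test. Of the 88 rows, 87 had a higher knockout mean on the log scale, including all 77 main loci. The median log2 fold change was 0.45, or 1.37-fold, with quartiles of 0.38 and 0.53, while the median over all 11603 rows was -0.01. Log2 fold changes are knockout over control on the log2(RPKM + 0.5) scale. Both knockout libraries lay above both control libraries in 84 of the 88 rows, against 25.0% of all rows, and in no row did both lie below.

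With limma over all rows and Benjamini-Hochberg adjustment, 0 ribosomal protein rows passed a threshold of 0.05, and the smallest adjusted p was 0.162, for Rpl37a. Only 1 of the 11603 rows passed, or 0.00862%. At an unadjusted p under 0.05, 60 ribosomal protein rows were higher and 0 lower, against 10.3% of all rows that were higher. That count of 60 depended on the scale: it was 13 when scaled by the reads listed (3.70% of all rows), 7 with quantile normalization (8.00%), 22 with the length trend removed (8.13%) and 7 with the level trend removed (8.02%). It was 66 without control 1 (7.41% of all rows), 8 without control 2 (4.19%), 23 without knockout 1 (9.69%) and 12 without knockout 2 (6.98%). limma-voom on the reads recovered from the RPKM values called 0 of the 88 rows, against 0.0948% of all rows, and gave 61 higher at an unadjusted p under 0.05, against 9.95%. By the adjusted p of the authors' deposited table, 7.84% of all rows lay under 0.05, and 0 of the 88. The smallest value for a ribosomal protein gene in the authors' deposited table was 0.0582, for Rpl35a. In bulk RNA, a different share of cells and a different amount of transcript per cell cannot be told apart.

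**Figure D1:**
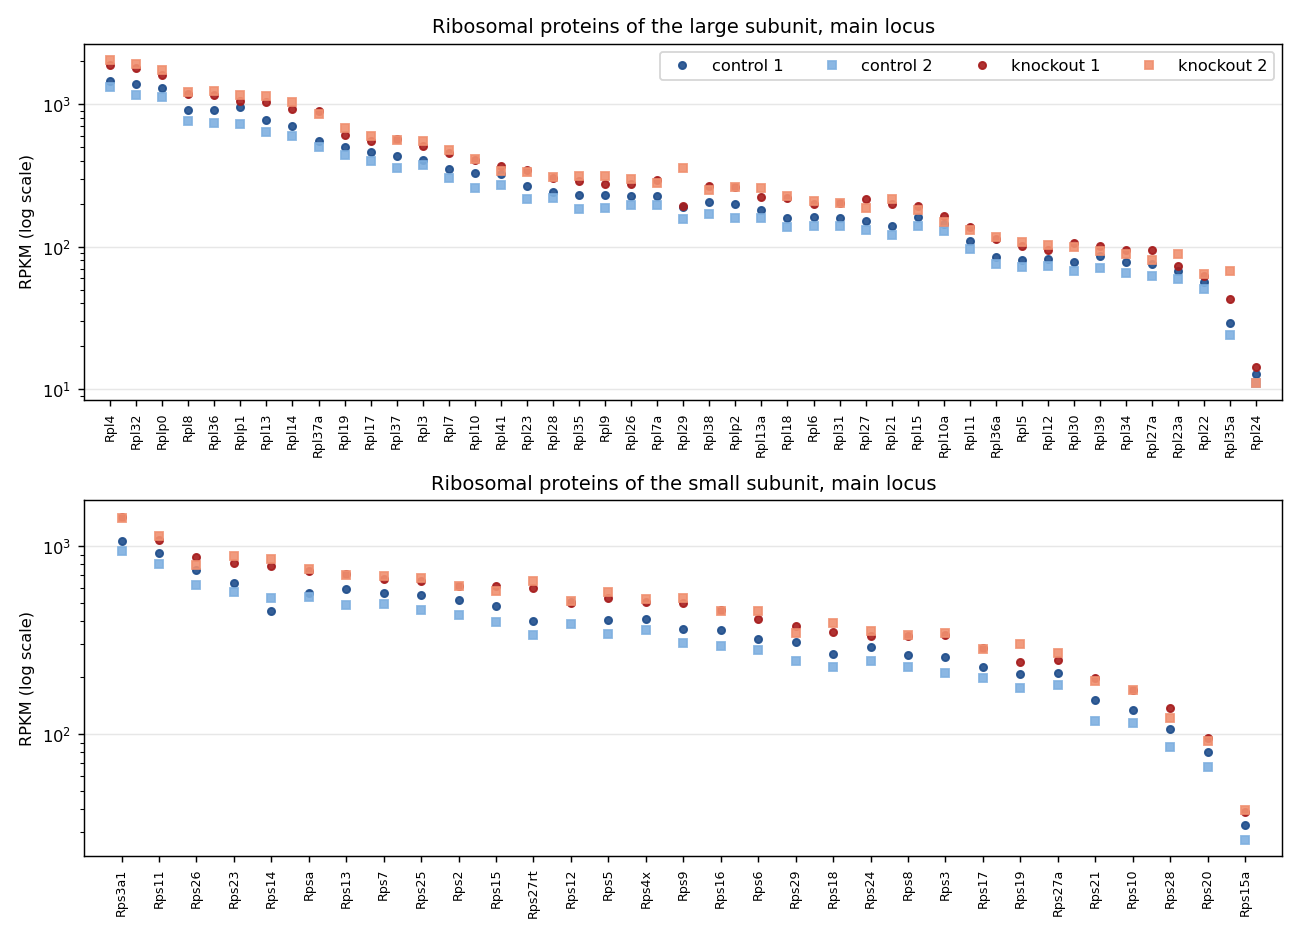
Level in RPKM (log axis) of main-locus ribosomal protein genes in the 4 libraries, large subunit above and small subunit below, ordered by mean level. Blue points are the 2 control libraries and red points the 2 knockout libraries; in all but 2 of the genes plotted (Rpl24 and Rps12) both red points lie above both blue points, and control 2 is the lowest library in all but 1 of them.

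The starts of these genes, which the choice by symbol did not use, were searched for a pyrimidine run like that of the TOP motif. RefSeq windows of GRCm38.p6 were found for 57 of the 77 main-locus genes, with 67 annotated starts in all. Each window was read from 15 bases before the start to 15 bases from it onward, on the gene's strand. A run was a C followed by at least 5 bases that were each C or T, so 6 bases or more. Only the strand of the gene was searched, and of overlapping matches the longest counted. A run anywhere in the window counted, and some, as in Rpl31 and Rpl4, lay wholly before the annotated start. A run in the window is therefore not the same as a TOP motif at the start of the messenger RNA. Such a run was present in 50.75% of the 67 windows, against 22.48% of all 32851 promoter windows. It was present in 45.45% of the 11 windows of other TOP messenger RNAs and in 26.67% of the windows of mitochondrial ribosomal protein genes. These 8 windows carry the run, in capitals, close to the annotated start, which is the sixteenth base of each.

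Rpl18 (chr7:45718056-45718085, plus strand): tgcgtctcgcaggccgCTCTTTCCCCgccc
Rpl28 (chr7:4792950-4792979, plus strand): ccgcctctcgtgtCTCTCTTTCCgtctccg
Rpl27a (chr7:109519180-109519209, plus strand): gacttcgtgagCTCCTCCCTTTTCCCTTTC
Rplp2 (chr7:141447636-141447665, plus strand): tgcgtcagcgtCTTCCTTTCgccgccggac
Rps6 (chr4:86857353-86857382, minus strand): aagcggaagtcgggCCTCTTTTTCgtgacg
Rps10 (chr17:27635230-27635259, minus strand): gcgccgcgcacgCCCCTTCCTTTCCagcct
Rps18 (chr17:33955651-33955680, minus strand): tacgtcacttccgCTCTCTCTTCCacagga
Rps27 (chr3:90213634-90213663, minus strand): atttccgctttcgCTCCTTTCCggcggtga

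These 3 windows of highly expressed genes are shown for contrast, because no such run lies within them.

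Rplp0 (chr5:115559452-115559481, plus strand): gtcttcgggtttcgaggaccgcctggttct
Rps3a1 (chr3:86142654-86142683, minus strand): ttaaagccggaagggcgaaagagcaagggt
Rpl37a (chr1:72711245-72711274, plus strand): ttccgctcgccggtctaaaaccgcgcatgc

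Genes with and without a run had similar differences. The 33 genes with a run in at least 1 window had a median log2 fold change of 0.47, and the 24 genes without one had 0.45. All 57 were higher in the knockout. Rpl18 and Rpl37a, with and without the run, both lay in the upper part of the range (0.59 and 0.74 on the log2 scale). An annotated start can differ from the one the cells use, so a window without a run says only that these letters are not in it.

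In the large subunit, all 46 main-locus genes were higher in the knockout, with a median log2 fold change of 0.47 and a range from 0.08 to 1.01. Both knockout libraries lay above both controls in 45 of them. Rpl4 (GRCm38 chr9:64173387-64178562), which lines the tunnel through which the new protein leaves, had the highest RPKM of all members, though by the level per main transcript described further on Rpl13, Rplp0, Rps19 and Rpl32 stood above it. Its values were 1453 and 1312 RPKM in the controls and 1891 and 2029 RPKM in the knockouts, a log2 fold change of 0.50 (SE 0.18, limma adjusted p = 0.236). The groups did not overlap.

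Rpl32, a protein of the large subunit, stood at 1371 and 1157 RPKM in the controls against 1777 and 1904 RPKM, a log2 fold change of 0.55 (SE 0.18). Rpl8, which lies close to the site where peptide bonds form, was at 903 and 757 RPKM against 1176 and 1204 RPKM (log2 fold change 0.52, SE 0.17). In both genes control 2 was the lowest library and knockout 2 the highest.

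The stalk of the large subunit, which calls in the elongation factors, is made of Rplp0 at its base and pairs of Rplp1 and Rplp2. Rplp0 was at 1291 and 1121 RPKM in the controls and at 1586 and 1735 RPKM in the knockouts (log2 fold change 0.46, SE 0.18). Rplp1 was at 958 and 729 RPKM against 1051 and 1161 RPKM (log2 fold change 0.40, SE 0.20). Rplp2 was at 199.9 and 159 RPKM against 263 and 261 RPKM (log2 fold change 0.55, SE 0.16). All 4 genes of the stalk list, which also holds Rpl12, had knockout values above both controls, and their median log2 fold change was 0.43.

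Rpl5 and Rpl11 bind the smallest ribosomal RNA of the large subunit, and when ribosome assembly is disturbed they hold Mdm2, the inhibitor of p53. Rpl5 was at 80.9 and 71.9 RPKM in the controls and at 101 and 108 RPKM in the knockouts (log2 fold change 0.45, SE 0.14). Rpl11 was at 109 and 96.9 RPKM against 137 and 130 RPKM (log2 fold change 0.38, SE 0.14). Mdm2 itself differed the other way, at 51.2 and 49.4 RPKM against 35.6 and 37.2 RPKM, with a log2 fold change of -0.46 (SE 0.13, limma adjusted p = 0.194). Around the tunnel exit, where new proteins meet their first helpers, all 7 listed proteins were higher in both knockout libraries. Their median log2 fold change was 0.44, with a smallest limma adjusted p of 0.208.

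Rpl35a (GRCm38 chr16:33056453-33060189), mutated in some families with Diamond-Blackfan anaemia, had the largest difference of all members. It stood at 29.3 and 24.1 RPKM in the controls and at 42.7 and 67.8 RPKM in the knockouts, a log2 fold change of 1.01 (SE 0.25, limma adjusted p = 0.177). The groups did not overlap, but the knockout libraries were 0.66 apart on the log2 scale. Rpl37a, a zinc-binding protein, was at 551 and 498 RPKM against 899.9 and 857 RPKM, a log2 fold change of 0.74 (SE 0.16). Here the libraries within each group lay close together. Rpl29 was singled out after its values were seen, because its knockout libraries differed most. It was at 191 and 157 RPKM in the controls, 192 RPKM in knockout 1 and 357 RPKM in knockout 2. Its log2 fold change of 0.60 had the largest standard error of the members, 0.31.

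At the other end, Rpl24, which forms a bridge to the small subunit, was at 12.8 and 11.0 RPKM in the controls and at 14.2 and 11.1 RPKM in the knockouts (log2 fold change 0.08, SE 0.19). The groups overlapped, and Rpl24 had the lowest level of the main-locus genes. Rpl10a, of the stalk where spent transfer RNA leaves, was at 143 and 128 RPKM against 165 and 149 RPKM (log2 fold change 0.21, SE 0.14). Rpl41, a very short peptide between the subunits, was at 324 and 273 RPKM against 369.9 and 338 RPKM (log2 fold change 0.25, SE 0.16). Rpl10, which joins late as the large subunit matures, was nearer the middle, at 327 and 259 RPKM against 407 and 409 RPKM (log2 fold change 0.49, SE 0.17).

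In the small subunit, all 31 main-locus genes were higher in the knockout, with a median log2 fold change of 0.44 and a range from 0.20 to 0.76. Both knockout libraries lay above both controls in 30 of them. Rps3a1 (GRCm38 chr3:86137940-86142702), which sits where the messenger RNA leaves, had the highest RPKM of the small subunit over summed exons, at 1063 and 936 RPKM in the controls and 1434 and 1416 RPKM in the knockouts. Its log2 fold change was 0.51 (SE 0.17, limma adjusted p = 0.224). Rpsa, which also goes by the name laminin receptor, was at 563 and 533 RPKM against 737 and 751 RPKM (log2 fold change 0.44, SE 0.15).

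The largest difference among main-locus genes of the small subunit was in the row labelled Rps27rt whose exons span chr3:90212522-90213651, which is the Rps27 gene in RefSeq. It stood at 402 and 335 RPKM in the controls and at 595 and 648 RPKM in the knockouts, a log2 fold change of 0.76 (SE 0.17, limma adjusted p = 0.166). Rps14, of the platform that holds the messenger RNA, was at 454 and 527 RPKM against 781 and 855 RPKM, a log2 fold change of 0.74 (SE 0.17). Rps14 was the single member in which control 2 lay above control 1. In both genes the groups lay apart.

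Rps6, phosphorylated by S6 kinase downstream of mTORC1, was at 319 and 281 RPKM in the controls and at 408 and 451 RPKM in the knockouts (log2 fold change 0.52, SE 0.15). Rps19, the gene most often mutated in Diamond-Blackfan anaemia, was at 208 and 176 RPKM against 242 and 301 RPKM (log2 fold change 0.49, SE 0.18). Rps27a, made as a fusion with ubiquitin, was at 210 and 182 RPKM against 247 and 270.1 RPKM (log2 fold change 0.40, SE 0.15). Rps12, of the head of the small subunit, had the smallest difference of its main-locus genes. It was at 502 and 385 RPKM against 498 and 511 RPKM, so knockout 1 lay below control 1 (log2 fold change 0.20, SE 0.18).

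The subunits differed by like amounts from the controls. Over all 53 large and 35 small subunit rows the median log2 fold change was 0.45 in both, and over main-locus genes it was 0.47 and 0.44. The summed level of the large subunit genes was 1.38 and 1.37 times that of the small subunit genes in the controls and 1.39 and 1.44 times in the knockouts. Grouped by place in the ribosome, the medians were 0.44 for the 14 head proteins of the small subunit, 0.44 for the 7 tunnel exit proteins and 0.43 for the 4 stalk proteins. The 16 measured genes mutated in Diamond-Blackfan anaemia had a median of 0.43 and were higher in both knockout libraries in all 16, the largest being Rpl35a.

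**Figure D2:**
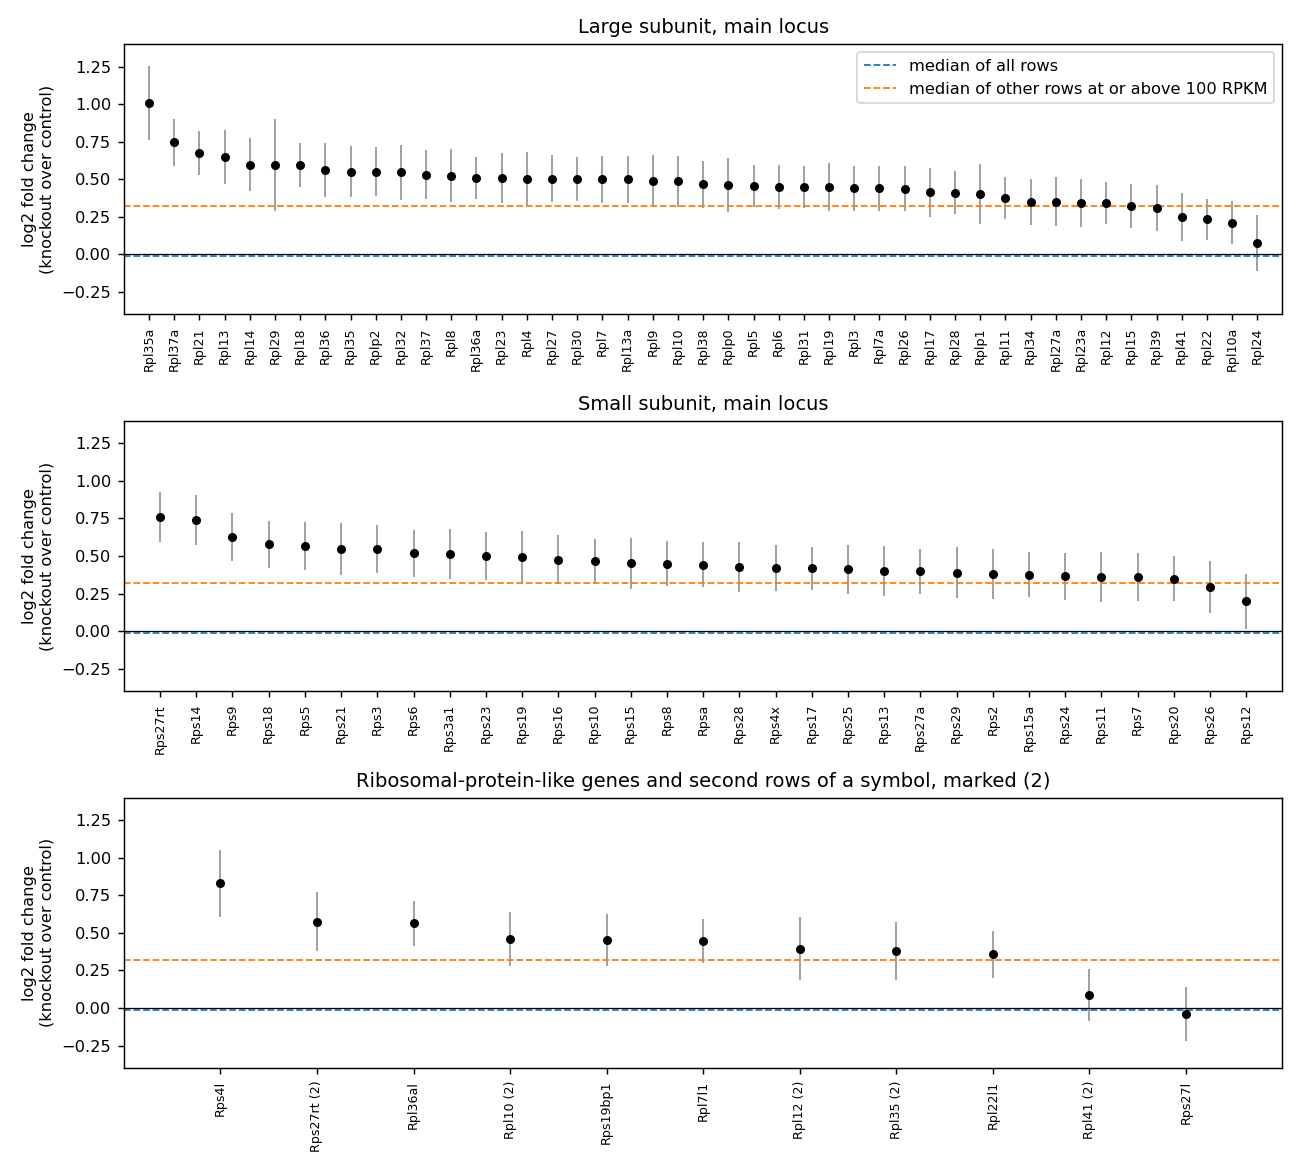
Log2 fold change, knockout over control, of ribosomal protein rows with the standard error from limma, in the large subunit, the small subunit, and the like genes and second rows. The blue dashed line is the median of all rows (-0.01) and the orange dashed line the median of other rows at or above 100 RPKM (0.32); every point plotted except that of Rps27l lies above 0.

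The ribosomal-protein-like genes were less uniform. Rps27l, a p53 target that can stand in for Rps27, was the single row with a lower knockout mean on the log scale. It was at 147 and 133 RPKM in the controls and at 118 and 157 RPKM in the knockouts, so that the groups overlapped fully (log2 fold change -0.04, SE 0.18). Ccng1, another p53 target, was at 15.8 and 17.6 RPKM against 7.16 and 11.8 RPKM (log2 fold change -0.82, SE 0.25, limma adjusted p = 0.206). Cdkn1a, also a p53 target, was at 949.7 and 1144 RPKM against 1171 and 1689 RPKM (log2 fold change 0.43, SE 0.24).

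Rpl7l1, an assembly factor of the large subunit related to Rpl7, was at 118 and 103 RPKM against 156 and 146 RPKM (log2 fold change 0.45, SE 0.14). Rpl36al, a second copy of Rpl36a, was at 108 and 90.6 RPKM against 147 and 146 RPKM (log2 fold change 0.56, SE 0.15). Rpl22l1, the paralog of Rpl22, was at 46.1 and 37.3 RPKM against 54.6 and 52.1 RPKM (log2 fold change 0.36, SE 0.16). Rps19bp1 matches the symbol rule but encodes a binding partner of Rps19 and not a ribosomal protein. It was at 61.6 and 49.2 RPKM against 81.7 and 69.9 RPKM (log2 fold change 0.45, SE 0.17).

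Rps4l, annotated by RefSeq as a transcribed pseudogene, was at 12.5 and 8.33 RPKM in the controls and at 17.6 and 19.6 RPKM in the knockouts (log2 fold change 0.83, SE 0.22). Its reads may come in part from Rps4x, and no count of shared words was made for it. The 5 second rows lie at processed copies of Rpl10, Rpl12, Rpl35, Rpl41 and Rps27, had mean levels between 3.77 and 44.5 RPKM and had a median log2 fold change of 0.40. The second row of Rpl41 was at 49.4 and 37.3 RPKM against 45.7 and 45.5 RPKM (log2 fold change 0.09, SE 0.17), and its groups overlapped.

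Reads of these genes are hard to place. In GENCODE M21 a median of 61.2% of the 50-base words of the main transcript also occurred in transcripts of other genes. The range was 0 to 98.6% over the 77 main-locus genes, and 51 of them were above 50%. How the authors' counting treated reads that fit several places is not given in the sources used here, so the levels of such genes are uncertain. For Rpl24 81.7% of words were shared, for Rps12 90.1%, and for Rpl8 7.86%. Across the 77 genes, the shared percentage had a Spearman correlation of -0.01 with the log2 fold change and -0.16 with the level, values that share the same libraries. The 2 main-locus genes whose groups overlapped, Rpl24 and Rps12, were both above the median in shared words. So were genes whose groups lay apart, such as Rpl10 (92.1%) and Rps10 (92.4%), and a part of shared words in the overlap was not tested.

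Length bore little relation to the difference within the family. Across the 88 rows the Spearman correlation of log2 fold change with summed exon length was 0.07, whereas across the 11515 other rows it was -0.29. Rows and genes are not independent replicates, and these correlations are descriptions. The 11 ribosomal protein rows under 600 bases had a median log2 fold change of 0.40, the 21 rows from 600 to under 1000 bases 0.45, and the 56 longer rows 0.45. In the same classes the other rows had medians of 0.31, 0.27 and -0.02. The short ribosomal protein rows thus lay 0.09 and 0.18 above other rows of their classes, and the long ones 0.47 above. Those gaps did not hold level equal. At or above 300 RPKM, ribosomal protein medians were 0.45 against 0.56 from 600 to under 1000 bases. From 1000 to under 2000 bases they were 0.46 against 0.54 at that level. They were 0.40 against 0.30 under 600 bases, and 0.54 against 0.40 from 2000 to under 4000 bases. In every other class by length and level that held both kinds of row, the ribosomal protein median was higher.

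The length in the table is the sum of all exons of a gene, which for these genes is often much more than 1 transcript. The summed exon length of main-locus genes had a median of 1586 bases (404 to 6262), and the main GENCODE transcript 729 bases. In 39 of 77 genes the summed length was over 2 times the transcript, and in Rps19 it was 7.40 times. RPKM was lower in genes of greater summed length within the family (Spearman -0.56), while a level per main transcript was not (-0.04). Rps19 stood at a mean of 232 RPKM, and at 1715 when its reads were scaled to the main transcript, the highest such level of the small subunit; Rps3a1 stood at 1212 on both. This scaling is the same in every library and leaves the log2 fold change of each gene in place.

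Level went with the difference over the whole table, and ribosomal protein genes are among its most abundant transcripts. Among other rows the median log2 fold change was -0.09 under 1 RPKM, -0.08 from 1 to 10, 0.07 from 10 to 100, 0.27 from 100 to 300 and 0.45 at or above 300 RPKM. The ribosomal protein rows had medians of 0.36 from 10 to 100 RPKM (19 rows), 0.47 from 100 to 300 (29 rows) and 0.47 at or above 300 RPKM (38 rows). At the highest levels they were therefore 0.02 above other rows, and at 10 to 100 RPKM 0.28 above.

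Ribosomal protein rows also spread less. At or above 100 RPKM, the standard deviation of the log2 fold change was 0.13 over 67 ribosomal protein rows and 0.39 over 649 other rows. Of those other rows, 83.1% were higher in the knockout and 61.9% were higher in both knockout libraries. For ribosomal protein rows at that level the shares were 98.5% and 97.0%.

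**Figure D3:**
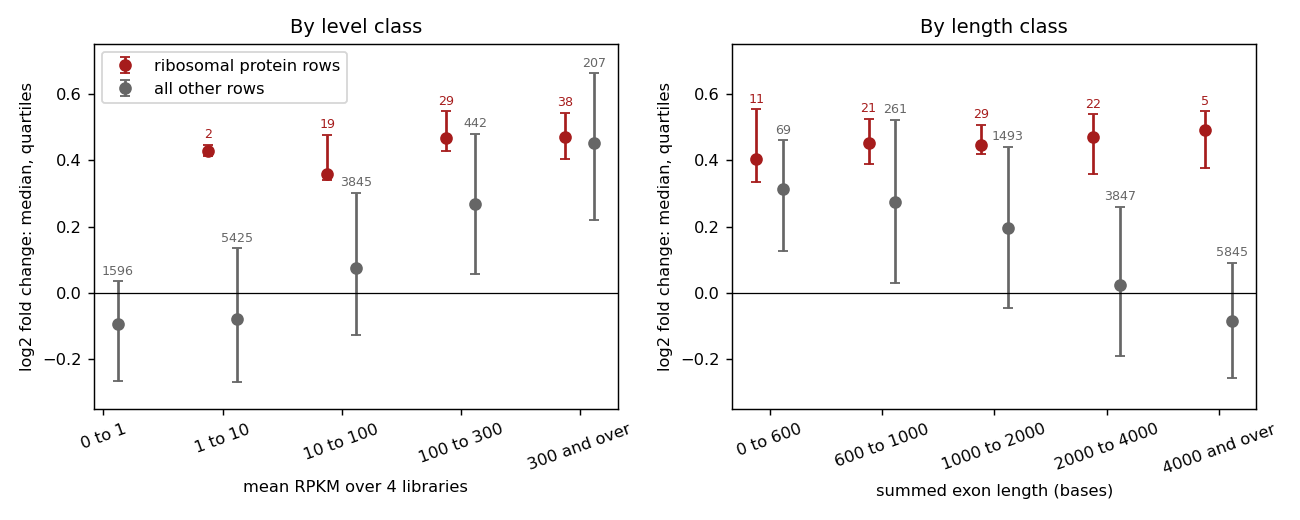
Median log2 fold change, knockout over control, with quartiles as bars, of ribosomal protein rows (red) and all other rows (grey) by mean level in RPKM on the left and by summed exon length in bases on the right; the numbers are rows per class. Red medians stay between 0.36 and 0.49 in every class, while grey medians climb from -0.09 to 0.45 with level and drop from 0.31 to -0.08 with length.

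How far the family stood apart depended on the scale. On the authors' scale the median deviation of the 88 rows from their own means was -0.11 and -0.34 in control 1 and control 2 and 0.21 and 0.25 in knockout 1 and knockout 2. The authors had divided by library sizes that were 85.9% and 92.4% of the reads listed in the controls and 75.7% and 75.5% in the knockouts. Scaled by the reads listed instead, the median of all rows moved to -0.20 and that of ribosomal protein rows to 0.21, so the distance between them was 0.41 in place of 0.46. On that scale 67 ribosomal protein rows were higher in both knockout libraries and 1 was lower in both, against 11.4% of all rows higher.

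With the trend on length removed, the median was 0.27 and 56 rows were higher in both knockout libraries, against 24.3% of all rows. With the trend on level removed, an alternative chosen after the data were seen, the median was 0.13 and 49 rows were higher in both knockout libraries, against 24.4% of all rows. After removal of the level trend 8 rows were lower in both, and control 1 and the knockout libraries were at -0.01, 0.04 and 0.06, with control 2 at -0.11. Quantile normalization gave a median of 0.12, with 70 of 88 rows higher in the mean. The cause of the level trend was not tested.

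**Figure D4:**
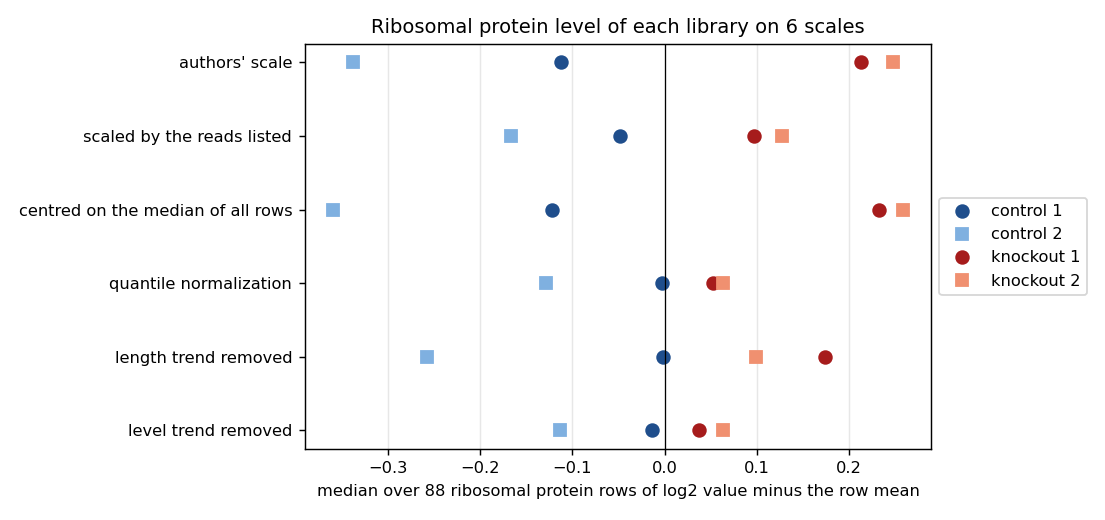
Median over the 88 ribosomal protein rows of log2 value minus the row's mean, for each of the 4 libraries (x axis, log2 units), on 6 scales (y axis). Control libraries are blue and knockout libraries red; control 2 is lowest on every scale, and the gap between control 1 (-0.11) and the knockout libraries (0.21 and 0.25) on the authors' scale narrows to -0.01 against 0.04 and 0.06 with the level trend removed.

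The family also differed between the control libraries. Control 1 lay above control 2 in 87 of the 88 rows, with a median log2 difference of 0.24, while the median over all rows was close to 0. Among other rows at or above 100 RPKM, control 1 was higher in 486 of 649, with a median of 0.14. The knockout libraries showed no such shift, with knockout 1 above knockout 2 in 35 of 88 rows and a median of -0.04. Without control 2 the median log2 fold change was 0.34, with 85 of 88 rows higher and 8 rows at an unadjusted p under 0.05. Without control 1 it was 0.58, with 88 of 88 rows higher.

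Summed over the 88 rows, ribosomal protein transcripts came to 30092 and 25773 RPKM in the controls and 37972 and 39777 RPKM in the knockouts. The group means were 27932 ± 3054 and 38874 ± 1276 RPKM (SD, n = 2), a ratio of 1.39. As a share of the summed RPKM of all rows they made up 7.12% and 6.60% against 7.35% and 7.49%, a ratio of 1.08. As a share of the reads listed they made up 3.50% and 3.25% against 3.92% and 4.12%, a ratio of 1.19. The groups did not overlap on any of these measures, and an exact permutation test of 2 against 2 libraries cannot give a p below 0.333.

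On the authors' scale, other genes of translation and ribosome assembly were mostly higher too, with smaller medians. Scaled by the reads listed, where the median of all rows is -0.20, those medians lay between -0.32 and 0.03, so their direction rests on the scale. Fau, whose product carries a small subunit protein, was at 332 and 288 RPKM in the controls and at 474 and 469.7 RPKM in the knockouts (log2 fold change 0.61, SE 0.15). Gnb2l1, the scaffold protein Rack1 of the small subunit, was at 145 and 125 RPKM against 161 and 156 RPKM (log2 fold change 0.24, SE 0.14).

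Of 17 other TOP messenger RNAs, 16 were higher, with a median log2 fold change of 0.26. limma called 0 of them, and 5 were higher at an unadjusted p under 0.05, against 10.3% of all rows. The median was 0.027 when scaled by the reads listed, 0.007 with quantile normalization and -0.04 with the level trend removed. Eef1a1, the elongation factor that carries transfer RNA, was at 2180 and 2024 RPKM against 2715 and 2751 RPKM (log2 fold change 0.38, SE 0.18). Tpt1 was at 557 and 483 RPKM against 744 and 879 RPKM (log2 fold change 0.64, SE 0.17). Vim, the intermediate filament vimentin, was the one lower, at 356 and 326 RPKM against 322 and 228 RPKM (log2 fold change -0.33, SE 0.20).

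The mitochondrial ribosome, which is built from a separate set of proteins, differed less on the authors' scale. Of its 74 rows 57 were higher and 17 lower, with a median log2 fold change of 0.22, and 39 were higher in both knockout libraries, against 25.0% of all rows. The median was -0.01 when scaled by the reads listed and 0.06 with the length trend removed. It was 0.165 with quantile normalization and 0.174 with the level trend removed. On those last scales the cytosolic rows had lower medians, 0.116 and 0.128. limma called 0 of them, with 11 higher at an unadjusted p under 0.05, against 10.3% of all rows. The authors' deposited table puts 2 under an adjusted p of 0.05, against 7.84% of all rows. Mrps6, of the small mitochondrial subunit, was at 135 and 109 RPKM against 202 and 189 RPKM (log2 fold change 0.69, SE 0.16). These genes have a median level of 14.9 RPKM against 250 RPKM for the cytosolic rows, a range in which other rows also had smaller log2 fold changes. From 10 to 100 RPKM the median of other rows was 0.07, below the 0.22 of the mitochondrial list.

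Among 32 genes of ribosomal RNA modification and processing, 24 were higher and 8 lower, with a median log2 fold change of 0.22. That median rests on knockout 1, which lay above knockout 2 in 31 of the 32 genes: it was -0.04 without knockout 1 and 0.41 without knockout 2. It was 0.09 without control 2 and -0.02 when scaled by the reads listed. limma called 0 and gave 7 higher at an unadjusted p under 0.05, against 10.3% of all rows. The authors' deposited table puts 4, all higher, under an adjusted p of 0.05, against 7.84% of all rows in either direction. Fbl, the fibrillarin that methylates ribosomal RNA, was at 222 and 209 RPKM against 379 and 336 RPKM (log2 fold change 0.73, SE 0.15, limma adjusted p = 0.153). Nop58, which holds the same guide particles together, was at 69.3 and 67.5 RPKM against 116 and 114 RPKM (log2 fold change 0.74, SE 0.13). Ncl, the nucleolar protein nucleolin, was at 135 and 117 RPKM against 195 and 133 RPKM, with overlapping groups (log2 fold change 0.35, SE 0.22).

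Of 34 factors of the large subunit 25 were higher, with a median log2 fold change of 0.16, and of 16 factors of the small subunit 10 were higher, with a median of 0.09. Knockout 1 lay above knockout 2 in 30 of the 34 and in all 16. Without knockout 1 the medians were -0.03 and -0.11, and without knockout 2 they were 0.36 and 0.38. Without control 2 they were 0.12 and -0.04, and scaled by the reads listed -0.07 and -0.14. limma called 0 in either list, with 5 higher and 1 lower, and 3 higher and 0 lower, at an unadjusted p under 0.05. At that threshold 10.3% of all rows were higher. Sbds, which releases a block from the new large subunit, was at 204 and 179 RPKM against 293 and 282 RPKM (log2 fold change 0.59, SE 0.15). Eftud1, the GTPase that works with Sbds, was the other way, at 3.72 and 4.24 RPKM against 1.98 and 2.63 RPKM (log2 fold change -0.68, SE 0.20). The authors' deposited table puts both under an adjusted p of 0.05, and no other of the 34. It puts 0 of the 16 small subunit factors there, against 7.84% of all rows.

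RNA polymerase I, which makes the large ribosomal RNAs, had 8 of 15 genes higher and 7 lower, with a median log2 fold change of 0.09, which was -0.04 without knockout 1, 0.33 without knockout 2, -0.03 without control 2 and -0.14 when scaled by the reads listed. limma called 0, with 2 higher at an unadjusted p under 0.05, against 10.3% of all rows. Of 17 genes of mTORC1 and TOP messenger RNA control, 5 were higher and 12 lower, with a median of -0.12. There limma called 0, with 2 higher and 1 lower at an unadjusted p under 0.05, against 10.3% of all rows higher. Myc, a transcription factor that drives many ribosome genes, was at 720.2 and 722 RPKM in the controls and at 992 and 1006 RPKM in the knockouts (log2 fold change 0.47, SE 0.15, limma adjusted p = 0.219). Eif4ebp1, the translation repressor that mTORC1 inactivates, was at 320.3 and 365 RPKM against 365 and 291 RPKM (log2 fold change -0.07, SE 0.18).

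**Figure D5:**
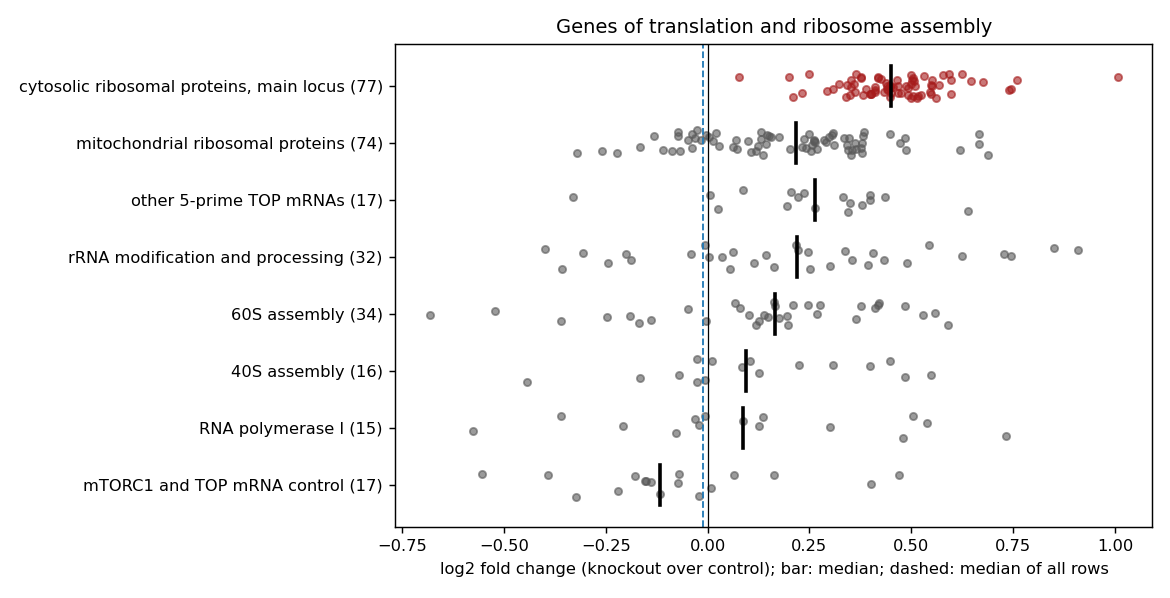
Log2 fold change, knockout over control, of main-locus ribosomal protein genes (red) and of 7 lists of related genes (grey), 1 point per gene, with the number of genes in brackets. Black bars are medians and the dashed line is the median of all rows (-0.01); the red points cluster around 0.45, and the grey lists have medians from -0.12 to 0.26 and wider spreads.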

How the data were processed

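The authors deposited 1 table. It was made, per the submitters' processing notes, with Trim Galore, STAR, featureCounts (Subread) and edgeR on mm10 (GRCm38); for versions, settings, strand and the filter on rows the answer is not given in the sources used here. All 4 sample columns hold RPKM computed by the authors: each value times the summed exon length was a whole number of reads in 100% of values (tolerance 0.01 reads). The deposited adjusted p-value of each row comes from a model the labels do not describe. Columns named Ct were taken as the controls and columns named Fl, which the labels do not spell out, as the knockouts; 0 columns were unmatched.

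limma 3.58.1 in R 4.3.3, with a mean-variance trend, was fitted to log2(RPKM + 0.5) of all 11603 rows in 4 libraries with genotype as the only term, with Benjamini-Hochberg adjustment and a threshold of 0.05. Fold changes on this scale understate those of low genes. With 2 libraries per group, the spread between libraries includes counting error, and the fewest reads of a ribosomal protein row in a library were 39. Main loci were found by overlap with RefSeq genes of GRCm38.p6, in which 11594 Entrez IDs matched. The members and the gene lists were chosen with earlier results of these data known. Genes were named by rule: the 6 with the highest level, the 5 with the largest and the 5 with the smallest log2 fold change, all like genes, the stalk and further members picked for their roles, and up to 4 per other list; 2 genes that this rule names are not reported here. Alternatives were other pseudocounts (0.1 and 1), a minimum mean of 1 RPKM, other scalings, limma-voom, a replicate block and each library left out.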

Additional observations from a re-analysis of the deposited data

How the results depend on the processing

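The number of ribosomal protein rows called by limma stayed at 0 under every alternative but 1. With a replicate block, 9 of the 88 rows were called, all higher (Rpl21, Rpl35a, Rps14, Rpl37a, Rps27rt, Rps4l, Rpl18, Rpl36al and Rpl30). The same fit called 1004 of all 11603 rows, 591 of them higher. The share called in either direction was thus similar over the whole table, while the share called higher was smaller there. With the same block, 16 genes of the related lists were called, 2 of them lower. No result about these lists is drawn from that count, since the block fit called 1004 of all 11603 rows. The labels do not say that a number pairs libraries; same-numbered libraries deviated together over all rows (correlation 0.39) but hardly over the ribosomal protein rows (0.05). The median log2 fold change of 0.45 became 0.21 when scaled by the reads listed, 0.12 with quantile normalization, 0.27 with the length trend removed and 0.13 with the level trend removed, and lay between 0.34 and 0.58 with each library left out. The large minus small subunit difference of medians (0.0057) became 0.035, 0.049 and 0.051 with quantile normalization, length trend removed and level trend removed, and -0.030 to 0.036 with each library left out. The difference of rows under 1000 bases minus longer rows (0.0033) became -0.076, -0.22 and -0.11 in the same order, and -0.045 to 0.041 with each library left out. The summed ratio of 1.39 was 1.19 as a share of reads and 1.08 as a share of summed RPKM. Rows higher in the knockout numbered 82 of 88 when scaled by the reads listed, 70 with quantile normalization, 82 with the length trend removed and 72 with the level trend removed. The genes named in the text that changed sign were these. Scaled by the reads listed: Rpl10a -0.026, Rpl24 -0.15, the second row of Rpl41 -0.15, Rps12 -0.038. Quantile normalization: Rpl10a -0.0094, Rpl4 -0.071, Rpl41 -0.067, its second row -0.046, Rplp0 -0.024, Rplp1 -0.085, Rps12 -0.23, Rps3a1 -0.053. Length trend removed: Rpl24 -0.19, the second row of Rpl41 -0.32, Rps12 -0.18. Level trend removed, an alternative chosen after the data were seen: Rpl10a -0.066, Rpl4 -0.042, Rpl41 -0.12, its second row -0.058, Rplp0 -0.066, Rplp1 -0.085, Rps12 -0.21. With each library left out, Rpl24 ranged from -0.098 to 0.25, the second row of Rpl41 from -0.11 to 0.29, and Rps27l from -0.25 to 0.16. The cause of these shifts was not tested. A group left with 1 library is assumed to vary like the other.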
